A study of Homo sapiens with 12 samples.

Results

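The genes described here are 40 factors that build ribosomes or organise the nucleolus, the nuclear body in which ribosomes are made. They were taken by symbol from each of the 4 tables of differential expression, which list 26441, 26337, 24192 and 24629 genes, and all 40 were found in every table. By role they fall into 3 subunits of RNA polymerase I, 4 proteins of small nucleolar ribonucleoproteins, 13 proteins of the small-subunit processome and 4 pre-40S factors. The rest are 12 pre-60S factors and 4 other nucleolar proteins (NPM1, NCL, DDX21 and LYAR). The ribonucleoprotein set holds the box C/D proteins NOP56, NOP58 and FBL and the chaperone NOLC1. In cells with a hairpin against IGF2BP3 all 40 had lower values than the control, and with hairpin 2 most of them stood at less than 50% of the control. In cells with a degradable IGF2BP3 protein the same genes split, some rising and others falling, by smaller amounts. At 24 h 8 rose and 15 fell, where 33.5% of all genes averaging 1000 reads or more rose and 38.1% fell.

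IGF2BP3 is an RNA-binding protein, and the study asked how its loss changes gene expression in human acute myeloid leukemia (AML) cells. There were 12 RNA-seq libraries in 6 groups of 2. MOLM13, an established AML line with a KMT2A fusion, carried a lentiviral hairpin: the control shNS, or shBP3-1 or shBP3-2 against IGF2BP3, called hairpin 1 and hairpin 2. U937, an established monocytic line, carried IGF2BP3 fused to mAID, a degron tag that the auxin analogue 5-Ph-IAA turns into a signal for degradation, and was untreated (NT) or treated for 6 h or 24 h. All U937 groups share the tagged protein, the untreated control included, and all MOLM13 groups share lentiviral delivery of a hairpin. The labels name total RNA for all MOLM13 libraries and mRNA for all U937 libraries, while the protocols describe captured mRNA. Whether the tagged line is 1 clone is not given in the sources used here.

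RNA polymerase I transcribes one long precursor of the ribosomal RNAs in the nucleolus. Small nucleolar ribonucleoproteins modify that precursor, and the small-subunit processome, a large assembly built around the U3 small nucleolar RNA, folds and cleaves it. Separate sets of factors then mature the small and the large subunit and escort them to the cytoplasm. Growing cells, leukemia cells among them, make many ribosomes, and the transcription factor MYC is known to bind the promoters of many of these genes at the E-box CACGTG.

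The promoters of the members were searched for CACGTG, which reads the same on both strands, in RefSeq windows (GRCh38.p14) from 250 bases before to 50 bases after each start. Of the 40 members 34 had a window, and 17 of these 34 (50%) held the E-box. The share was 8.77% of all 27305 genes with a window and 12.9% of the 8469 other genes averaging at least 100 reads in the hairpin 2 table. The 8 members printed here are those with an E-box whose level was lowest with hairpin 2 relative to the control. Each line gives 30 bases of the gene's own strand, 5′ to 3′, with the E-box in capitals.
UTP20: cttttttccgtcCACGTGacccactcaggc
LYAR: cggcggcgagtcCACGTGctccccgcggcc
FBL: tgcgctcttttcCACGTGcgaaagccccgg
MRTO4: cgtcttccgccgCACGTGgattcagcgcga
IMP4: ttctcccggaccCACGTGgaagcggcactc
DDX21: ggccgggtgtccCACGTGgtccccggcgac
NAT10: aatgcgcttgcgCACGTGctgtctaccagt
UTP14A: accttgggcCACGTGgaaaccaggggccag

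These stretches lie at chr12:101280083-101280112 (UTP20, plus strand), chr4:4290068-4290097 (LYAR, minus), chr19:39846356-39846385 (FBL, minus) and chr1:19251807-19251836 (MRTO4, plus). The others lie at chr2:130342900-130342929 (IMP4, plus), chr10:68956604-68956633 (DDX21, plus), chr11:34105602-34105631 (NAT10, plus) and chrX:129905914-129905943 (UTP14A, plus). Counted from the start base as 0, the E-box began at position -10 in UTP20, 6 in FBL and -241 in UTP14A. In 15 of the 17 member windows with an E-box it began within 50 bases of the start (88.2%), against 38.9% of the 2548 windows of any gene that held one. The limit of 50 bases was set after the positions had been seen.

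A longer stretch is given for UTP20, the member with the lowest value under hairpin 2, and for NOB1, the member with the highest value at 24 h. The UTP20 stretch is chr12:101279985-101280104 on the plus strand, the 120 bases before the start, with the E-box in capitals. The NOB1 stretch is chr16:69754942-69755076 on the minus strand, 135 bases that end 16 bases before the start. Its capitals mark 2 overlapping matches, 1 on each strand, to CATGCGC, a form of the binding motif of NRF1.
UTP20: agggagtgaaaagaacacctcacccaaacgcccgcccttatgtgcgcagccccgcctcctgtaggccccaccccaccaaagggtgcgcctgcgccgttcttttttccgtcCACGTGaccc
NOB1: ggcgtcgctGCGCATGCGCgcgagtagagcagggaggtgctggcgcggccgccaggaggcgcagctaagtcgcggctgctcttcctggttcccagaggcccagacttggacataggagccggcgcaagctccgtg

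CATGCGC, on either strand, occurred in 2 of the 34 members with a window, DDX10 and NOB1 (5.88%), against 9.56% of the other genes averaging at least 100 reads. The ETS motif CCGGAAG, on either strand, occurred in 12 of 34 (35.3%) against 24.8%, and TCTCGCG, the other letters searched, in 4 of 34 (11.8%) against 8.40%. A match is a string of letters and no measurement of binding. NOP58, NOLC1, RRP12, DDX18, BOP1 and RRP1B had no window in the table used.

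**Figure D1:**
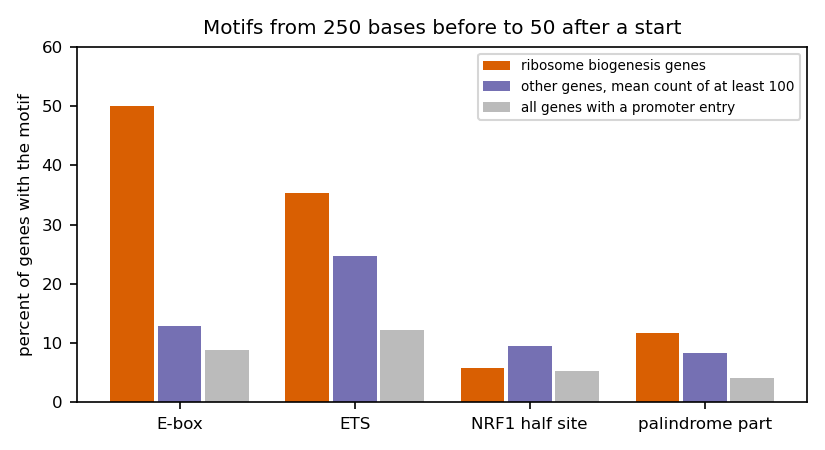
Share of genes (percent, y axis) whose promoter window holds each motif (x axis), for the 34 ribosome biogenesis genes with a window, other genes averaging at least 100 reads and all genes with a window. The E-box stands at 50% of the members against 12.9% and 8.77%, and the label "palindrome part" stands for the motif TCTCGCG.

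Each deposited table gives a gene's base mean (read here as normalised reads averaged over its 4 libraries), its log2 fold change and its adjusted p. Base means summed to 22544563 and 22028570 reads in MOLM13 and to 11826946 and 12360751 in U937. With no value per library at hand, group means carry no SD, and their ratio carries the 95% interval that its adjusted p implies. The labels do not say whether the 2 libraries of a group are separate cultures, and p-values could then reflect technical spread alone. IGF2BP3 mRNA itself fell by 1.32 on the log2 scale with hairpin 1, and by 1.03 with the other hairpin, in the authors' deposited tables. In U937, where the tag acts on the protein, its mRNA stood at -0.27 and 0.15 in the authors' deposited tables (adjusted p = 0.17 after 6 h and 0.25 after 24 h). Of 10 myeloid transcripts, all stood above 400 normalised reads in shNS but CD14 (46.3). In NT cells ELANE (9916), CEBPA (5349), CD4 (2528), AZU1 (1838), SPI1 (1099), CD33 (690) and LYZ (303) were present, ITGAM stood at 80.5, and the monocyte marker CD14 (0.55) and MPO (0.20) were near 0. The controls carried FLT3 at 13595 in MOLM13 and 2.33 in U937. The other genes listed with FLT3 for KMT2A-rearranged cells were present in both lines. They were HOXA9 (862 in MOLM13 and 540 in U937), HOXA10 (1355 and 1770), MEIS1 (2082 and 1144.5) and PBX3 (2945 and 204). T cell, B cell and erythroid markers stood at 36.6 or less in the controls. The epithelial marker KRT18 stood at 874 and 855 in the 2 MOLM13 tables. In bulk RNA, fewer cells with a transcript and less transcript per cell cannot be told apart. A gene is called risen or fallen where the adjusted p is under 0.05.

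The members differed widely in level before any treatment. On a scale of normalised reads per kilobase of exon (GENCODE 29), the median member stood at 597 in shNS and 361 in NT cells. The scale is not corrected for depth between the lines. Base means summed to 22028570 reads in the hairpin 2 comparison and to 12360751 in the 24 h comparison, from which these values come. The gap between the lines therefore cannot be read as a difference in expression. NPM1, nucleophosmin, a histone and ribosome chaperone that is often mutated in AML, was the highest in both lines at 7354 and 4207 reads per kilobase. NCL, nucleolin, which binds nascent ribosomal RNA, stood at 3583 and 2657, and FBL, fibrillarin, at 2947 and 1574.

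The order of the other members was not the same in the lines. DDX21, an RNA helicase that binds ribosomal RNA precursors, was next to NPM1 in MOLM13 at 4860 reads per kilobase and stood at 935 in U937. BYSL, a factor that stays on the small subunit until late in its maturation, ranked 21 of 40 in MOLM13 at 586 and 2 of 40 in U937 at 2821. No test was made between the lines, which were sequenced and scaled separately. The labels name total RNA for MOLM13 and mRNA for U937, so cell line and any difference in library type cannot be told apart.

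NOP2 and PPAN were the lowest members in both lines. NOP2, a methyltransferase of large-subunit ribosomal RNA, had 10.6 reads per kilobase in shNS and 1.64 in NT cells. PPAN, a large-subunit factor, had 127 and 19.4. In GENCODE 29, 54.4% of the exon bases of NOP2 also belong to AC006064.6 on the same strand, and 56.0% of those of PPAN belong to the read-through gene PPAN-P2RY11. How the counting treated such bases is not stated, and their part in the low values was not tested.

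Hairpin 2 gave the larger change. By the authors' deposited table, 39 of the 40 members fell, none rose, also at an unadjusted p under 0.05, and 34 of those that fell stood below 50% of the control. Of all 20768 tested genes 22.1% fell and 19.4% rose, and a fall of 2-fold or more was seen for 7.77%. Of the genes averaging 1000 reads or more, as most members do, 44.3% fell and 30% rose. The members' median log2 fold change was -1.17, beside 0.02 for all tested genes and -0.08 for those averaging at least 100 reads.

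Hairpin 1 gave the same direction at a smaller size. Here 26 of the 40 members fell in the authors' deposited table and none rose, also at an unadjusted p under 0.05, where 32 fell. Of all 16282 tested genes 16% fell and 17.7% rose, and of those averaging 1000 reads or more 25.5% fell and 28.4% rose. Counts by role, given below for both hairpins, rest on few genes each and were not tested against such shares. The median log2 fold change of the members was -0.33, beside -0.01 for all tested genes. All 40 had a negative log2 fold change with each hairpin, and because both comparisons use the same 2 shNS libraries these are not independent.

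**Figure D2:**
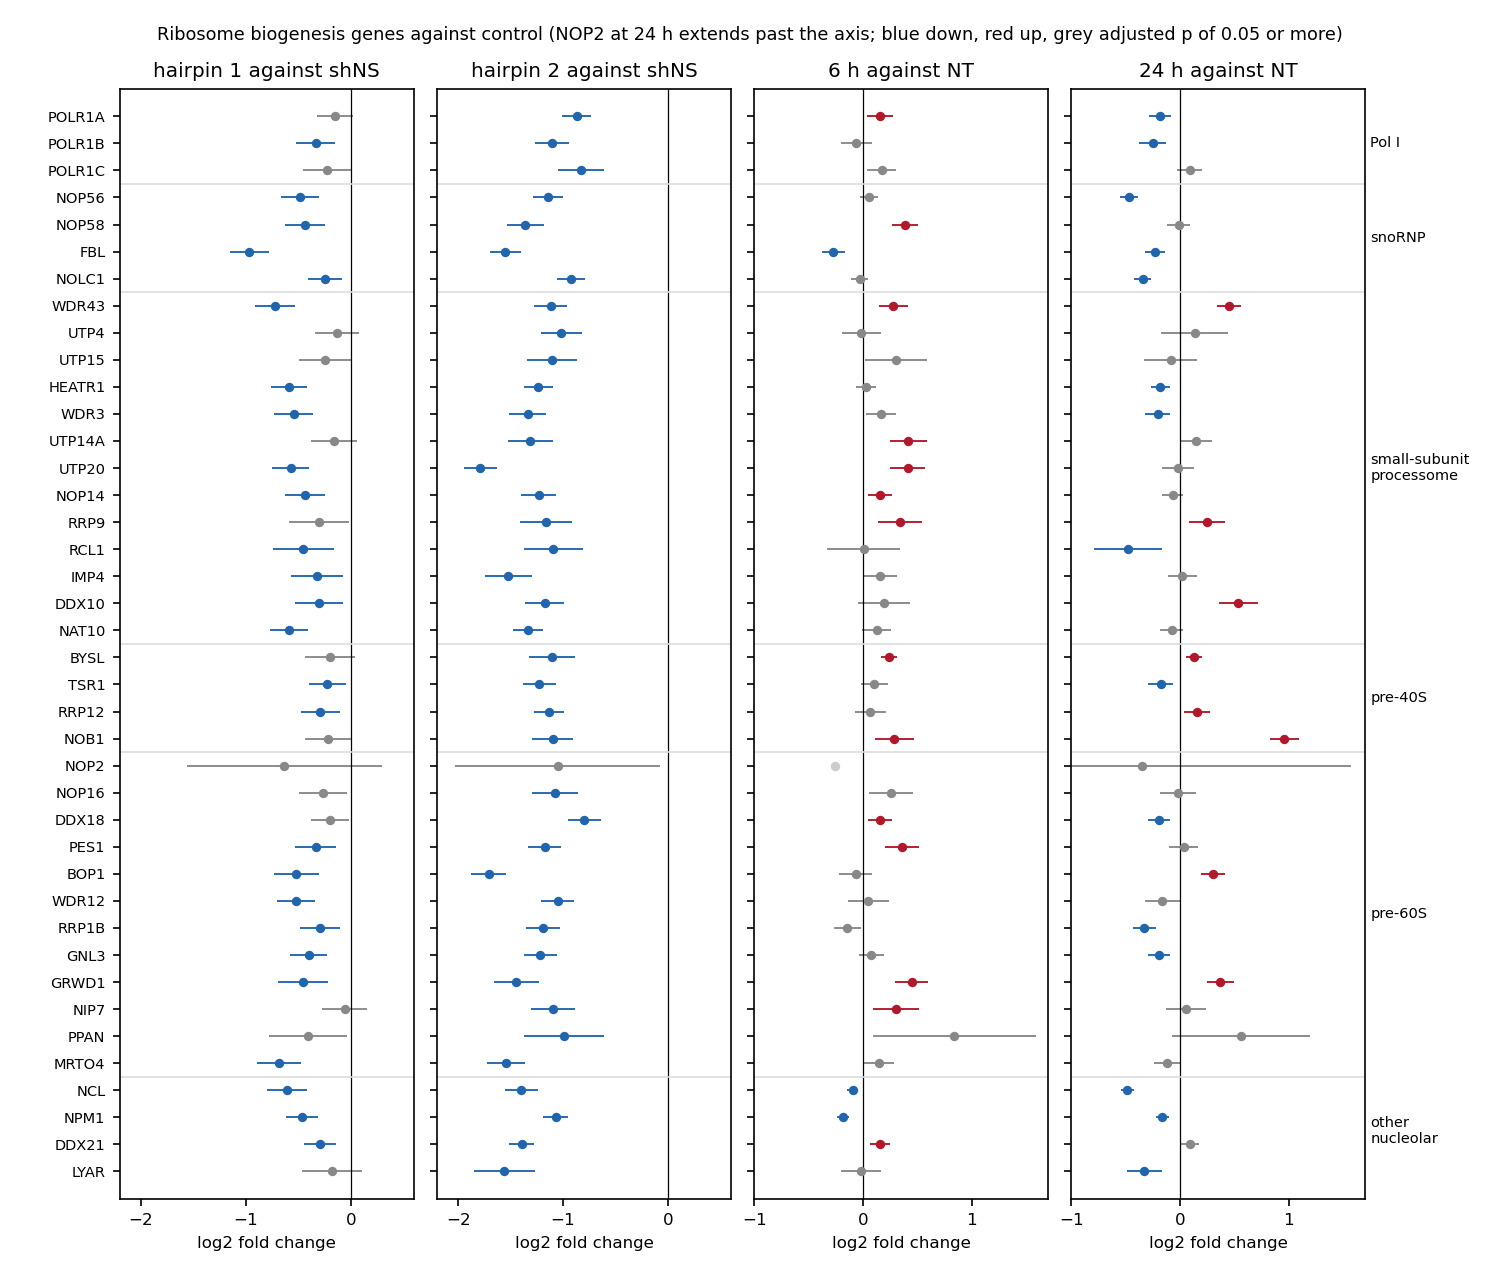
Log2 fold change against the control (x axis) of each of the 40 members (y axis, grouped by role) in the 4 comparisons, with 95% intervals as bars. The hairpin panels and the U937 panels have different x ranges; with hairpin 2 all points lie between -1.79 and -0.80, while at 6 h and 24 h points lie on both sides of 0 and NOP2 was not tested at 6 h (pale point).

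**Figure D3:**
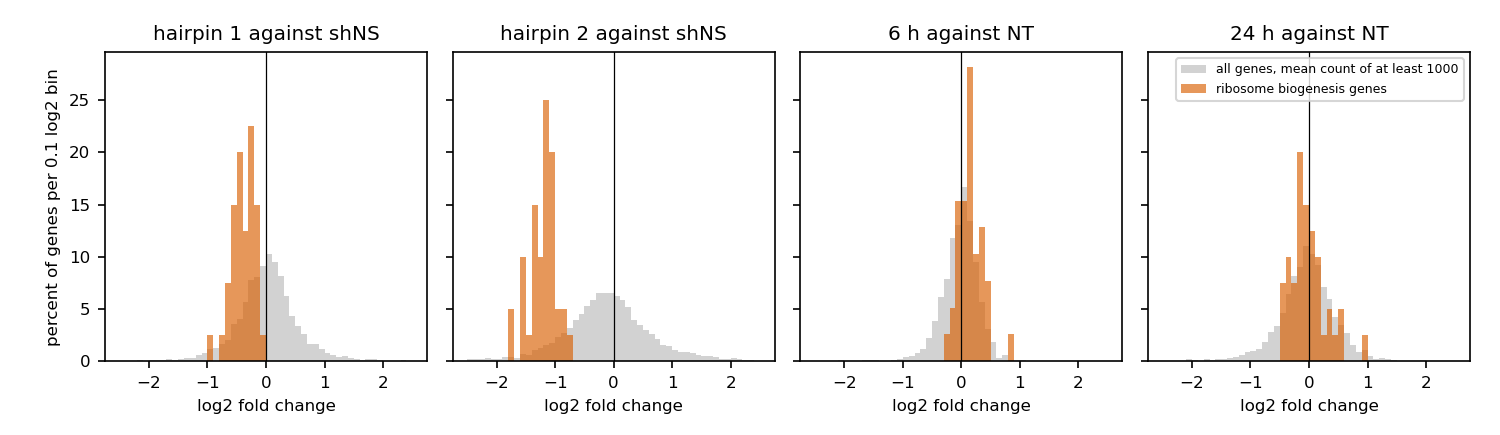
Share of genes per 0.1 log2 bin (percent, y axis) over the log2 fold change (x axis), for the tested members and for all genes averaging at least 1000 reads in each comparison. The members' distribution has its median at -0.33 and -1.17 with the hairpins, and at 0.16 and -0.07 at 6 h and 24 h.

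Of the RNA polymerase I subunits, all 3 fell with hairpin 2 and 1 fell with hairpin 1. POLR1A, the largest and catalytic subunit, went from 5543 normalised reads in shNS to 3032 with hairpin 2, which is 54.7% of the control. POLR1B, the other large subunit of the catalytic core, stood at 46.4% of the control with hairpin 2 and at 79.3% with hairpin 1. POLR1C, a subunit shared with RNA polymerase III, stood at 56.2% with hairpin 2. In the authors' deposited tables the log2 fold changes of POLR1A and POLR1C with hairpin 1 were -0.15 and -0.23 and did not pass (adjusted p = 0.21 and 0.12).

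The box C/D proteins and the chaperone NOLC1 fell with both hairpins, 4 of 4 each time. FBL, the enzyme that places 2′-O-methyl groups on ribosomal RNA (chr19, 39834458 to 39846414, minus strand, hg38), fell from 6547 to 3353 normalised reads with hairpin 1. With hairpin 2 it fell from 6403 to 2188, or 34.2% of the control. Its log2 fold change with hairpin 1, -0.97 (95% interval -1.15 to -0.78, adjusted p = 1.8e-23), was the lowest of any member in that authors' deposited table. NOP56 and NOP58, the paired core proteins that hold the guide RNA, stood at 71.6% and 73.9% with hairpin 1 and at 45.2% and 38.9% with hairpin 2. NOLC1, a chaperone of these particles, stood at 84.6% and 52.8%.

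All 13 small-subunit processome proteins fell with hairpin 2 and 9 fell with hairpin 1. UTP20, a very large scaffold protein (chr12, 101280109 to 101386616, plus strand, hg38), had the lowest value of them with hairpin 2. It went from 4983 normalised reads in shNS to 3350.3 with hairpin 1, and in the other table from 4875 to 1410.2 with hairpin 2. Its hairpin 2 log2 fold change in the authors' deposited table was -1.79 (95% interval -1.95 to -1.63, adjusted p = 4.8e-108).

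WDR43, UTP4, UTP15 and HEATR1 belong to the early-binding complex that also supports transcription of the ribosomal RNA genes. With hairpin 2 they stood at 46.1%, 49.5%, 46.4% and 42.5% of the control. With hairpin 1, WDR43 (60.5%) and HEATR1 (66.7%) fell, while UTP4 (91.2%, adjusted p = 0.37) and UTP15 (84.4%, adjusted p = 0.12) did not pass in the authors' deposited table.

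The U3 proteins and U3-bound factors were RRP9, which binds the U3 RNA directly, IMP4, and RCL1, which is needed for a cleavage of the precursor in yeast. With hairpin 2 they stood at 44.7%, 34.9% and 46.9% of the control. With hairpin 1, IMP4 (80.2%) and RCL1 (73.2%) fell and RRP9 (81.1%) did not pass (adjusted p = 0.094 in the authors' deposited table).

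Among the remaining processome proteins, WDR3 stood at 68.6% with hairpin 1 and 39.6% with hairpin 2, and NOP14 at 73.8% and 42.6%. NAT10, which acetylates cytidines of ribosomal RNA, stood at 66.5% and 39.6%, and the helicase DDX10 at 81.1% and 44.3%. UTP14A, a cofactor of the helicase that releases U3, stood at 40.3% with hairpin 2. With hairpin 1 it was at 89.6%, which did not pass (adjusted p = 0.31 in the authors' deposited table).

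The 4 pre-40S factors all fell with hairpin 2 and 2 of them fell with hairpin 1. TSR1, a late-acting factor that resembles a GTPase, stood at 85.5% with hairpin 1 and 42.8% with hairpin 2. RRP12, a nuclear export factor, stood at 81.8% and 45.7%. BYSL and NOB1, the endonuclease that makes the last cut of the small-subunit ribosomal RNA, stood at 46.5% and 46.7% with hairpin 2. Their values with hairpin 1, 87.2% and 86.1%, did not pass (adjusted p = 0.22 and 0.13 in the authors' deposited table).

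Of the 12 pre-60S factors, 11 fell with hairpin 2 and 7 with hairpin 1. BOP1, PES1 and WDR12 form the PeBoW complex, which is needed for large-subunit processing. BOP1 fell from 3335 to 2330.2 normalised reads with hairpin 1 and from 3263 to 999 with hairpin 2. PES1 stood at 79.3% and 44.3% of the control and WDR12 at 69.8% and 48.3%. With hairpin 2 the log2 interval of BOP1 from the authors' deposited table, -1.88 to -1.54, does not overlap those of PES1 (-1.33 to -1.01) or WDR12 (-1.21 to -0.89).

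MRTO4, which holds the place of the stalk protein on the immature large subunit, stood at 62.4% with hairpin 1 and 34.3% with hairpin 2. GRWD1, known as a chaperone of a ribosomal protein, stood at 72.9% and 36.7%. GNL3, nucleostemin, a nucleolar GTPase, stood at 75.7% and 43.0%, and RRP1B at 81.6% and 43.9%. These 4 fell with both hairpins.

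DDX18, NOP16, NIP7 and PPAN fell with hairpin 2, to 57.5%, 47.4%, 46.8% and 50.3%. With hairpin 1 they stood between 75.4% (PPAN) and 96.1% (NIP7), and none passed in the authors' deposited table. NOP2 was the only member that fell with neither hairpin, at 48.3% with hairpin 2 (adjusted p = 0.079 in the authors' deposited table). It rests on few reads, 49.8 in shNS and 24.1 with hairpin 2.

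NPM1, NCL and DDX21 had the most reads of the members in MOLM13. NPM1 (chr5, 171387116 to 171411137, plus strand, hg38) fell from 28778 to 20883 normalised reads with hairpin 1 and from 28149.9 to 13409 with hairpin 2. NCL (chr2, 231453531 to 231483641, minus strand, hg38) fell from 25389 to 16671 and from 24829 to 9431. DDX21 fell from 24943 to 20325 with hairpin 1 and from 24398 to 9276 with hairpin 2. LYAR, a nucleolar zinc finger protein, stood at 88.3% with hairpin 1, which did not pass (adjusted p = 0.37 in the authors' deposited table), and at 34.0% with hairpin 2. Processed copies of NPM1 exist in the genome, and reads that fit several copies may have been lost or split.

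**Figure D4:**
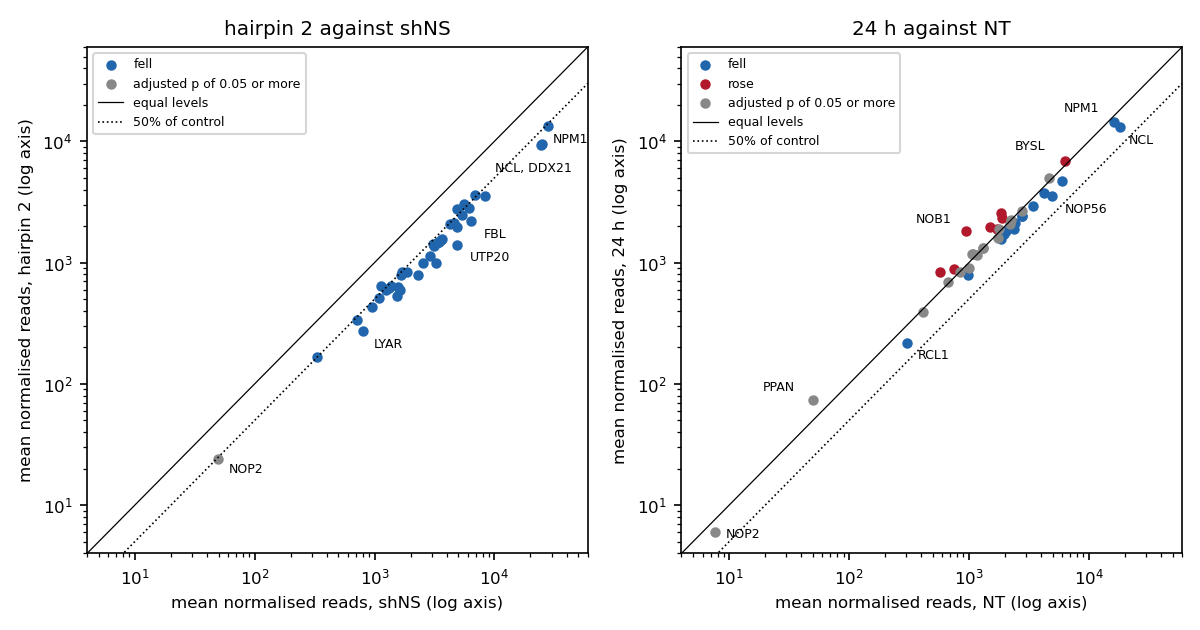
Mean normalised reads in the treated group (y axis, log) against the control (x axis, log) for the 40 members, with hairpin 2 (left) and at 24 h (right). With hairpin 2 the points follow the dotted line of 50% of the control over the whole range, from NOP2 (49.8 reads in shNS) to NPM1 (28149.9); at 24 h they scatter around equality, and NOB1 stands above the line.

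The difference between the hairpins was tested gene by gene, as hairpin 2 minus hairpin 1 on the log2 scale. It was lower for 38 members and higher for none, also at an unadjusted p under 0.05. Over 16255 genes the same test found 18.3% lower and 9.1% higher. The members' median difference was -0.83, beside -0.06 for all genes. LYAR had the lowest difference (-1.38, 95% interval -1.78 to -0.97, adjusted p = 5.7e-10 from the authors' DESeq2 statistics). UTP20 (-1.22), IMP4 (-1.20), BOP1 (-1.19) and UTP14A (-1.15) followed, and WDR43 had the value nearest to 0 (-0.39, -0.64 to -0.15, adjusted p = 0.0076 from the authors' DESeq2 statistics). NOP2 (adjusted p = 0.76) and PPAN (adjusted p = 0.097) did not pass in this test on the authors' DESeq2 statistics. IGF2BP3 mRNA had the lower value with the other hairpin, -1.32 with hairpin 1 against -1.03 with hairpin 2 in the authors' deposited tables. No interval or test is given here for that difference, and it concerns mRNA and not protein.

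In U937 the first 6 h of 5-Ph-IAA gave small changes, more of them upward. Of 39 tested members 14 rose in the authors' deposited table and 3 fell, where 10.9% of 13940 tested genes rose and 12.3% fell. Of the genes averaging 1000 reads or more, 24.1% rose and 27.2% fell. The median log2 fold change of the members was 0.16, beside 0.01 for all tested genes. No member that passed moved by as much as 0.5 on the log2 scale.

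At 24 h the direction was divided. Of the 40 members 8 rose and 15 fell in the authors' deposited table, where 18.9% of 16104 tested genes rose and 19.9% fell. Of the genes averaging 1000 reads or more, 33.5% rose and 38.1% fell, so the members' falls were near this background and their rises below it. The members' median log2 fold change was -0.07 beside 0.01 for all tested genes.

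At 24 h, 2 of the 3 RNA polymerase I subunits and 3 of the 4 box C/D and chaperone proteins fell, and none rose. Of genes averaging 1000 reads or more, 38.1% fell and 33.5% rose at that time. Counts by role rest on few genes and were not tested against these shares. POLR1A rose from 2308 to 2573 normalised reads at 6 h and fell from 2430.1 to 2137 at 24 h. POLR1B stood at 84.0% of NT at 24 h, a fall, and POLR1C at 106%, which did not pass (adjusted p = 0.25 in the authors' deposited table). NOP56 (chr20, 2652145 to 2658393, plus strand, hg38) stood at 104% at 6 h (adjusted p = 0.40 in the authors' deposited table) and fell to 72.2% at 24 h. NOLC1 fell to 78.8% at 24 h. FBL fell at both times, to 82.6% and 85.2%, while NOP58 rose to 131% at 6 h and stood at 99.2% at 24 h.

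Among processome proteins, 5 of 13 rose at 6 h, and 3 rose and 3 fell at 24 h. Of genes averaging 1000 reads or more, 24.1% rose at 6 h, and 33.5% rose and 38.1% fell at 24 h. UTP14A (134%), UTP20 (133%), RRP9 (127%), WDR43 (121%) and NOP14 (112%) were those that rose at 6 h. At 24 h WDR43 was at 137%, DDX10 at 145% and RRP9 at 119%, and all 3 passed. HEATR1 (88.2%), WDR3 (86.6%) and RCL1 (71.8%) fell at that time. IMP4, NAT10, UTP4 and UTP15 passed at neither time.

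NOB1 (chr16, 69741867 to 69754940, minus strand, hg38) changed most in U937. It rose from 890.4 to 1088 normalised reads at 6 h and from 938 to 1822 at 24 h. Its log2 fold change at 24 h was 0.96 in the authors' deposited table (95% interval 0.82 to 1.09, adjusted p = 3.7e-43). In GENCODE 29 the antisense gene AC092115.3 covers 20.2% of its exon bases, and whether the counting used strand is not given in the sources used here. BYSL, also of the small subunit, rose to 118% and 109%. RRP12 stood at 105% at 6 h (adjusted p = 0.57 in the authors' deposited table) and rose to 111% at 24 h. TSR1 fell to 88.4% at 24 h.

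Among pre-60S factors GRWD1 rose at both times, to 136% and 129%. PES1 (128%), NIP7 (123%) and DDX18 (111%) rose at 6 h. At 24 h BOP1 rose to 123% while DDX18 (87.5%), RRP1B (79.6%) and GNL3 (87.7%) fell. NOP16, WDR12 and MRTO4 passed at neither time. PPAN stood at 179% and 147% on 47.7 and 50.2 control reads and did not pass (adjusted p = 0.099 and 0.17 in the authors' deposited tables). NOP2, at 7.27 control reads, was left untested by the authors at 6 h and did not pass at 24 h (adjusted p = 0.83 in the authors' deposited table).

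Of the 4 other nucleolar proteins, NPM1, NCL and LYAR fell at 24 h, where 38.1% of genes averaging 1000 reads or more fell. NCL fell from 17482 to 16399 normalised reads at 6 h and from 18408 to 13162 at 24 h, or 71.5% of NT. NPM1 fell to 87.8% and 89.3%. LYAR fell at 24 h, to 79.6%. DDX21 rose to 112% at 6 h and stood at 107% at 24 h, which did not pass (adjusted p = 0.059 in the authors' deposited table).

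The change from 6 h to 24 h was tested as a difference of log2 fold changes. It was lower at 24 h for 14 of 39 members and higher for 2, where the same test over 13919 genes found 12.1% lower and 10.9% higher. The median difference of the members was -0.23, beside -0.01 for all genes. NOP56 (-0.53, 95% interval -0.65 to -0.41) and UTP20 (-0.43, -0.65 to -0.21) were the lowest of those that passed. NCL (-0.39, -0.47 to -0.32) had the narrowest interval of these. NOB1 (0.67, 0.44 to 0.90) and BOP1 (0.37, 0.18 to 0.56) were the 2 that were higher. FBL and NPM1, which fell at both times, did not differ detectably between them (intervals -0.10 to 0.18 and -0.06 to 0.11).

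**Figure D5:**
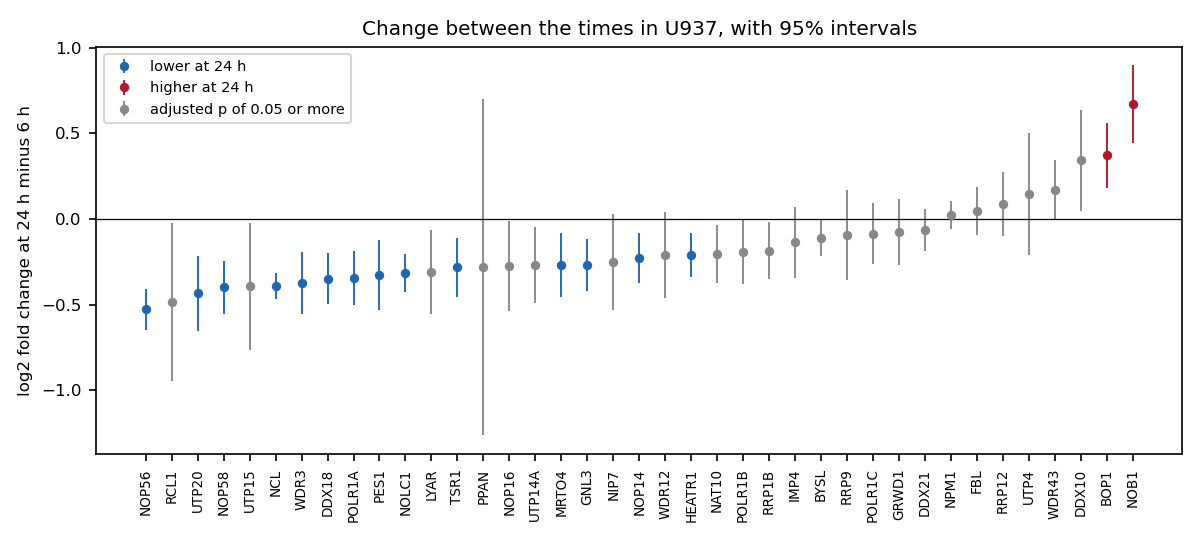
Difference of log2 fold changes, 24 h minus 6 h (y axis), for the 39 members tested at both times (x axis, ordered by value), with 95% intervals. The 14 members that were lower at 24 h include NOP56 at -0.53, and NOB1 (0.67) and BOP1 (0.37) are the 2 that were higher.

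Across the cell lines 15 of the 40 members fell both with hairpin 2 and at 24 h, and 8 fell with hairpin 2 and rose at 24 h. Of the 13785 genes tested in both 11% fell in both, and of the 2669 averaging 1000 reads or more in both 24.2% did. Because 39 of the 40 members fell with hairpin 2, these 15 and 8 are simply the members that fell and rose at 24 h. The overlap adds nothing to those 24 h counts. At 24 h 38.1% of genes averaging 1000 reads or more fell and 33.5% rose. FBL, NCL and NPM1 fell in all 4 comparisons. A further 9 (POLR1B, NOP56, NOLC1, HEATR1, WDR3, RCL1, TSR1, RRP1B and GNL3) fell with both hairpins and at 24 h. WDR43 and GRWD1 fell with both hairpins and rose at both times. RRP9, BYSL and NOB1 fell with hairpin 2 and rose at both times. For these patterns, and for a fall with hairpin 2 and a rise at 24 h, the share of all genes was not worked out. The lists therefore describe the members only. Over the 40 members the log2 fold changes with hairpin 2 and at 24 h had a Pearson r of 0.0073 and a Spearman rho of -0.011, a description across genes of libraries with no sample in common.

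Other genes of ribosome biogenesis, 140 in 5 lists, also fell more often than they rose in MOLM13. With hairpin 2 the authors' deposited table had 128 fallen and none risen, also at an unadjusted p under 0.05, with a median log2 fold change of -0.82. With hairpin 1, 66 fell and 4 rose (median -0.27). Of all tested genes 22.1% fell and 19.4% rose with hairpin 2, and 16% fell and 17.7% rose with hairpin 1. Of genes averaging 1000 reads or more, 44.3% fell and 30% rose with hairpin 2, and 25.5% fell and 28.4% rose with hairpin 1. The members' medians, -1.17 and -0.33, were lower, but the members were chosen with results of these data known.

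By list, with hairpin 2, 16 of 17 factors of RNA polymerase I fell, 12 of 13 snoRNP proteins, 43 of 46 other small-subunit factors, 43 of 49 other large-subunit factors and 14 of 15 exosome genes. TCOF1, treacle, a partner of RNA polymerase I counted here among the snoRNP proteins, stood at 25.3% of the control. RUVBL1, an ATPase of the same list that helps assemble snoRNPs, stood at 34.2%. NLE1 and WDR74, which act on the large subunit, stood at 30.8% and 34.6%, and the exosome subunits EXOSC8 and EXOSC9 at 32.1% and 32.8%.

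In U937 the same 140 genes moved both ways. Of 139 tested at 6 h, 43 rose and 8 fell, and at 24 h 47 rose and 29 fell, by the authors' deposited tables. At 6 h 10.9% of all tested genes rose and 12.3% fell, and of those averaging 1000 reads or more 24.1% rose and 27.2% fell. Their median log2 fold change at 24 h was 0.05, beside -0.07 for the members, of which more fell (15) than rose (8). At that time 33.5% of all genes averaging 1000 reads or more rose and 38.1% fell, beside 18.9% and 19.9% of all tested genes. The share of the 140 that rose was near 33.5%, and the share that fell was near 19.9% and below 38.1%. Of the factors of RNA polymerase I, 10 of 17 had fallen and 2 risen at 24 h, and POLR2H, a subunit shared by the nuclear polymerases, stood at 48.1% of NT. Other small-subunit factors had 18 of 46 risen and 6 fallen, among them NOC4L at 199.7% and TSR2 at 190% of NT. Other large-subunit factors had 20 of 49 risen and 8 fallen, with DDX56 at 169% and EBNA1BP2 at 65.7%.

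MYC mRNA fell with both hairpins and at 24 h, and most cell cycle transcripts fell in the same 3 comparisons. MYC mRNA stood at 50.8% of the control with hairpin 1, 35.0% with hairpin 2, 92.7% at 6 h (adjusted p = 0.086 in the authors' deposited table) and 71.0% at 24 h. Of 24 cell cycle genes, 23 fell with hairpin 1 and 24 with hairpin 2, with median log2 fold changes of -1.04 and -2.62 in the authors' deposited tables. At 6 h 6 rose and 5 fell (median 0.02), and at 24 h 6 rose and 15 fell. The part of MYC or of the cell cycle in the members' values was not tested.

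The members with an E-box in their promoter window were compared with those without one, 17 each, as a description. With hairpin 2 their median log2 fold change was -1.23, against -1.11 for those without. At 24 h it was -0.02 against -0.16. By these medians of the authors' deposited values, members with the site stood slightly lower with hairpin 2 and slightly higher at 24 h.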

How the data were processed

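Libraries were made from bead-captured mRNA, per the labels' protocols, although the labels name total RNA for MOLM13. The submitters' processing notes name cutadapt 4.1, HISAT2 2.1.1, the build hg38, HTSeq 2.0.2 and DESeq2. The signal in the deposited tables is the DESeq2 base mean, which the authors scaled for depth and averaged over 4 libraries, per the file headers. The log2 fold changes and the adjusted p-value of each gene were used as the authors deposited them. The annotation release, the strand setting and any shrinkage are not given in the sources used here.

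The planned fits need values per library, so the authors' DESeq2 statistics were used. The Benjamini-Hochberg step was undone to recover unadjusted p-values. Standard errors and 95% intervals assume a normal (Wald) test and are upper bounds where adjusted p-values tie. Base mean and fold change together gave the group means. The control means that both tables of a line gave differed by a constant factor (median -2.19% in MOLM13, 5.30% in U937), within 0.0183% and 0.0688% for 95% of genes with a control mean of at least 1000. Differences between hairpins and between times were set against their combined standard error (root of the sum of squares) and adjusted over all genes, which counts the shared controls as separate. The calculation was tested on simulated data. For genes averaging 1000 reads or more the median standard error was 0.11, 0.09, 0.07 and 0.06 (hairpin 1, hairpin 2, 6 h, 24 h). Authors' filtering left genes with a mean under 10.4, 2.46, 16.4 and 6.52 untested.

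The members, roles and lists were chosen with earlier results of these data known. All members were named, and of other lists the 2 lowest and 2 highest called genes with hairpin 2 or at 24 h could be. Promoter windows are from RefSeq, GRCh38.p14. Python 3.11.15, pandas 2.3.3, NumPy 2.4.6 and SciPy 1.17.1 were used. Alternatives were a threshold of 0.01, a minimum change of 0.5, minimum mean counts, centring, another adjustment and another standard error.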

Additional observations from a re-analysis of the deposited data

Results flagged for a closer look

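The difference between the hairpins passed an adjusted p under 0.05 for 38 of the 40 members by the test on the authors' DESeq2 statistics, each lower with hairpin 2 than with hairpin 1. Over 16255 genes this test found 18.3% lower and 9.1% higher. All 38 share the 2 shNS libraries. IGF2BP3 mRNA itself had its lower value with hairpin 1, and no test of that difference is given here.

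The log2 fold change differed between 24 h and 6 h of 5-Ph-IAA for 16 members by the test on the authors' DESeq2 statistics. Among polymerase and snoRNP genes the differences were -0.34 (POLR1A), -0.53 (NOP56), -0.40 (NOP58) and -0.31 (NOLC1). Among small-subunit genes they were -0.21 (HEATR1), -0.37 (WDR3), -0.43 (UTP20), -0.23 (NOP14), -0.28 (TSR1) and 0.67 (NOB1). Among large-subunit genes they were -0.35 (DDX18), -0.33 (PES1), -0.27 (GNL3), -0.27 (MRTO4) and 0.37 (BOP1), and NCL had -0.39. POLR1A and DDX18 had passed upward at 6 h and downward at 24 h. The 2 times share the NT libraries.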

How the results depend on the processing

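Of 108 recomputed counts and medians under other settings, 94 stayed within 1.5 times the reported count or within the reported spread. A minimum change of 0.5 on the log2 scale left 10 members called with hairpin 1 (10 fallen), 0 at 6 h (0 risen, 0 fallen) and 2 at 24 h (2 risen, 0 fallen), which follows from the small changes there. At 6 h a threshold of 0.01 left 9 risen, and the Benjamini-Yekutieli adjustment left 11 called, 8 of them risen. With a standard error that leaves out the shared controls, 28 members differed between 24 h and 6 h, 24 lower and 4 higher. Centring each table on its median gene moved that median by at most 0.08. It kept the direction and call of 40 of 40 members with each hairpin and at 24 h, and of 37 of 39 at 6 h. There POLR1A no longer passed (0.14, adjusted p = 0.064), and RCL1 changed sign at a value near 0 (-0.0066, adjusted p = 0.99), both from the authors' DESeq2 statistics. No paired analysis was possible because the tables hold no values per library. For the same reason leaving out a replicate, edgeR and the replicate block were not run. Depth limits NOP2 most, whose log2 interval with hairpin 2 runs from -2.02 to -0.08 at a control mean of 49.8 normalised reads.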

Other observations

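Among the 15 or fewer tested regulators of ribosomal RNA synthesis and of MYC activity, MXD4, a partner of MAX that competes with MYC for it, rose in all 4 comparisons. Its log2 fold changes in the authors' deposited tables were 0.63 and 1.26 for hairpins 1 and 2, then 0.96 after 6 h and 1.66 after 24 h. Of that list 4 genes fell and 5 rose with hairpin 1, 5 fell and 5 rose with hairpin 2, 2 fell and 2 rose at 6 h, and 5 fell and 3 rose at 24 h. CDKN1A, an inhibitor of cell cycle kinases induced by p53, stood at 190% and 236% of shNS with the hairpins and at 44.0% of NT at 24 h, on few reads in U937. MDM2, which holds p53 down, stood at 135%, 206% and 68.9% in the same comparisons.

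Exon bases shared with another listed gene averaging at least 100 reads were found for 16 of the 40 members, and over 20% of the exon bases were shared in 4 (HEATR1 with LGALS8, TSR1 with SRR and SGSM2, NOB1 with AC092115.3 and NIP7 with COG8). All of these partners lie on the opposite strand.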
